A study of Mus musculus with 8 samples.

Results

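Cluster 1 is a group of activated CD4 T cells that the authors separated from the rest of their single-cell RNA data, with raised transcripts of Ccl4, Rgs16, Spp1, Nr4a1 and Slc17a6. Its members are the cells that carry the number 1 in the deposited cluster column and in which at least 500 genes were detected. These are 29365 of 101688 cells kept, or 28.9%, and the largest of the 11 other clusters, cluster 0, held 39805. The cells came from the spleens of female mice aged 10 weeks whose strain field reads GPR65, were CD4+ and were harvested after 3 days of polarization in culture. To make Th22 cells, 40 ng/ml of IL-6 was combined with 400 nM of FICZ, which activates the aryl hydrocarbon receptor. Th17 cells were made with 25 ng/ml of IL-6 and without FICZ, and 20 ng/ml of IL-1b and of IL-23 were part of every culture. The 4 groups, with 2 libraries each, were Gpr65 KO Th22, Gpr65 KO Th17, Gpr65 WT Th22 and Gpr65 WT Th17. The labels do not state how Gpr65 was deleted, in which cells, or whether libraries 1 and 2 of a group came from separate animals, so p-values here reflect only how much libraries of a group differ, which may be technical. Because IL-6 and FICZ changed together between Th22 and Th17, their contributions cannot be told apart.

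When the T cell receptor is engaged, calcium and kinase signals switch on immediate early genes such as Nr4a1, which encodes a nuclear receptor used as a marker of receptor signal strength. Activated T cells then secrete chemokines and cytokines and, through Myc, build ribosomes before they divide. GPR65 is a receptor that senses extracellular protons and couples to production of cyclic AMP, a messenger known to dampen T cell receptor signaling and to act on genes through cyclic AMP response elements (CRE).

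Because Nr4a1 is known to carry CRE in its promoter and Myc binds E-boxes, the promoters of 3 genes that led the cluster are shown. They come from the RefSeq promoter table for GRCm38.p6, which held 13 of the 20 leading genes, and each window spans the annotated start of the transcript. Capitals mark TGACG, the core of the CRE, which reads CGTCA on the other strand, and CACGTG, an E-box that reads the same on both strands. Both strands were searched, and no match of either motif overlapped another in these 3 windows. The Nr4a1 window is chr15:101266596-101266895 on the plus strand, that of Dusp2 is chr2:127335909-127336208 on the plus strand and that of Grwd1 is chr7:45830740-45831039 on the minus strand.
Nr4a1: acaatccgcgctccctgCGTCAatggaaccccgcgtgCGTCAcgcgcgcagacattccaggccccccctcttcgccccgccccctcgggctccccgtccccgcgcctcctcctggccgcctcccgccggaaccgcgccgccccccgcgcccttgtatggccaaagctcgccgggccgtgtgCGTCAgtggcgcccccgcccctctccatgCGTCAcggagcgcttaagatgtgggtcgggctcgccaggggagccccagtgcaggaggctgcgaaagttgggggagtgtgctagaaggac
Dusp2: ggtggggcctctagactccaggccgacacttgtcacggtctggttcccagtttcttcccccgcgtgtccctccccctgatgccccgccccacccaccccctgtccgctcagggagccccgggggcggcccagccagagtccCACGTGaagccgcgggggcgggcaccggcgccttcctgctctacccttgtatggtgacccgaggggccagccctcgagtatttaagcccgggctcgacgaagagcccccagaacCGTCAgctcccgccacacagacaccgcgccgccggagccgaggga
Grwd1: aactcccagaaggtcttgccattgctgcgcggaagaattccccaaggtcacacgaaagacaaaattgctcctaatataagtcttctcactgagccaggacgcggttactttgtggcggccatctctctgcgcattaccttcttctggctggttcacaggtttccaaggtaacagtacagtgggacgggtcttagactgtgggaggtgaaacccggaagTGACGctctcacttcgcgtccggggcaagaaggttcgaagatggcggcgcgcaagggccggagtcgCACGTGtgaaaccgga
The Nr4a1 window held 4 copies of TGACG and no CACGTG, and the windows of Dusp2, a phosphatase that turns off MAP kinases, and Grwd1, a ribosome assembly factor, held 1 copy of each motif. TGACG was found in 6 of the 13 leading genes with a window (46.2%), namely Dusp2, Egln3, Grwd1, Nolc1, Nr4a1 and Slc17a6, while 20.8% of all 32851 promoters held it. CACGTG was found in 2 of the 13 (15.4%), against 7.15% of all promoters. A gene counted if any of its windows held the motif, and the 13 genes had 15 windows. The shares of all promoters count single windows, so the shares are not measured alike. Of a list of 21 immediate early and T cell receptor signal genes with a window, 10 held TGACG and 2 held CACGTG, and of 18 Myc and ribosome biogenesis genes 9 and 5 did. A match describes the letters of these windows and is not a binding site.

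The libraries held 9969 to 15119 kept cells and 2331 to 5229 cells of cluster 1, which was 21.8% to 37.2% of a library. The KO libraries numbered 2 had the largest shares, 35.9% in Th22 and 37.2% in Th17, against 21.8% to 29.0% in the others. The summed counts of cluster 1 ranged from 9975821 to 21037210 UMIs (unique molecular identifiers, 1 per captured transcript) per library. Its cells had a median of 2389 to 4152 UMIs, close to the 2332 to 4139 UMIs in all other cells of the same libraries. Across libraries, 1269 cell barcodes occurred in more than 1 library, and 208 cells of cluster 1 shared a barcode with another cell of the cluster.

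The targeted gene was read first. Gpr65 (chr12:98268635-98276644 on the plus strand, ENSMUSG00000021886, mm10) had 0.963 and 0.851 CPM in KO Th22, 1.36 and 1.95 CPM in KO Th17, 62.8 and 61.9 CPM in WT Th22 and 74.9 and 82.0 CPM in WT Th17, where CPM are UMI counts scaled to a common library size with TMM factors. All 4 KO libraries therefore lay far below all 4 WT libraries, as their labels state. Over both cultures the KO over WT difference was -5.78 ± 0.14 (log2 fold change ± SE, edgeR quasi-likelihood test with Benjamini-Hochberg adjustment, adjusted p = 7.82e-12).

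The 5 label genes were higher in cluster 1 than in all other cells in each of the 8 libraries. The clusters were made from the same transcripts, so these values describe the cluster and carry no test. Here CPM is relative to all UMIs of the cells summed, without TMM scaling. Rgs16 (chr1:153740349-153745468 on the plus strand, ENSMUSG00000026475), which speeds the shutdown of G protein signals, had 12.6 to 56.9 CPM (median 21) in cluster 1 and 1.91 to 16.4 CPM (median 4.76) in all other cells. The median log2 ratio of CPM + 1 was 1.94 (range 1.74 to 2.22). Nr4a1 (chr15:101254269-101274795 on the plus strand, ENSMUSG00000023034) had 32.3 to 68.9 CPM (median 46.5) in cluster 1 and 9.16 to 27.4 CPM (median 18.2) in all other cells, a ratio of 1.39 (range 1.04 to 1.71). Ccl4 (chr11:83662584-83664683 on the plus strand, ENSMUSG00000018930), a chemokine that attracts other immune cells, had 21 to 123 CPM (median 33.7) in cluster 1 and 4.16 to 38.4 CPM (median 11.6) in all other cells, a ratio of 1.70 (range 1.41 to 2.29). Within every library the cluster exceeded the other cells. Across libraries the ranges overlapped for Rgs16 and Ccl4 and did not overlap for Nr4a1. Spp1 (chr5:104435118-104441050 on the plus strand, ENSMUSG00000029304), which encodes the secreted protein osteopontin, had 3.12 to 78.8 CPM (median 12.8) in cluster 1 and 1.34 to 27.4 CPM (median 3.39) in all other cells, a ratio of 1.51 (range 0.22 to 2.29). Slc17a6 (chr7:51622006-51671119 on the plus strand, ENSMUSG00000030500), a vesicular glutamate transporter, had 12.1 to 45.9 CPM (median 24.3) in cluster 1 and 5.72 to 20.5 CPM (median 8.08) in all other cells, a ratio of 1.35 (range 0.94 to 1.74). Spp1 had the smallest margin, in WT Th22 replicate 2, where it was at 3.12 CPM in the cluster and 2.55 CPM in the other cells.

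**Figure D1:**
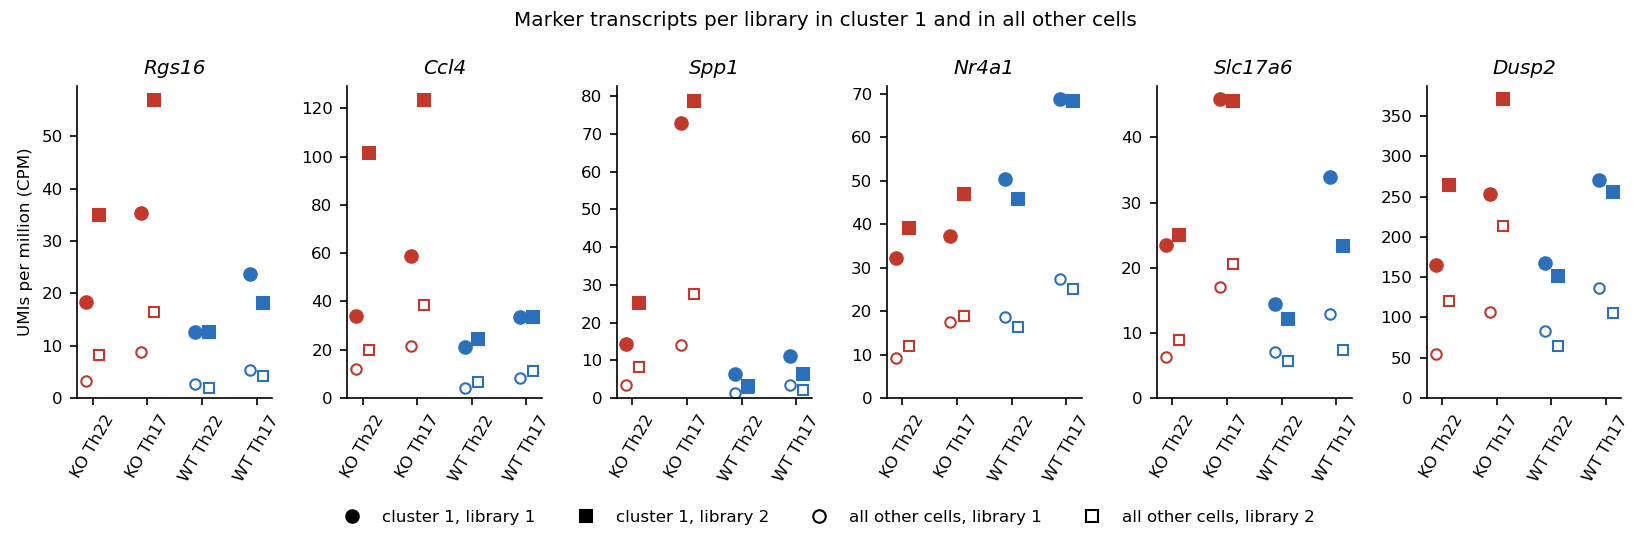
Levels of the 5 label genes and of Dusp2 in CPM, with 1 panel a gene and a vertical scale of its own that starts at 0. Groups run along the horizontal axis (KO in red, WT in blue), filled symbols are cluster 1, open symbols all other cells of the same library, circles library 1 and squares library 2. Every filled symbol lies above the open symbol of its own library.

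Among the authors' 12 clusters, Rgs16, Slc17a6 and Dusp2 had their highest median level in cluster 1. Nr4a1 was lower in cluster 1 (median 46.5 CPM) than in cluster 11 (57.9 CPM), Ccl4 was lower in cluster 1 (33.7 CPM) than in clusters 7 and 8 (174 and 67.8 CPM), and Spp1 was at 12.8 CPM in cluster 1 and 19.9 and 13.9 CPM in clusters 6 and 7. Rgs16 had a median of 21 CPM in cluster 1 and 20.8 CPM in cluster 9, and the ranges of the 2 clusters over libraries overlapped. By medians, Ccl4 and Spp1 thus each had 2 clusters above cluster 1. The profile of cluster 1 over 11386 genes was closest to those of cluster 2 (Pearson r = 0.993) and cluster 4 (r = 0.992), which share its libraries. Rgs16 had medians of 7.25 CPM in cluster 2 and 7.62 CPM in cluster 4, while Crabp2, a carrier of retinoic acid, was at 11.1 CPM in cluster 1 and 12.1 CPM in cluster 2. Slc17a6 had medians of 24.3 CPM in cluster 1 (range 12.1 to 45.9) and 19.0 CPM in cluster 2 (12.6 to 30.7). Dusp2 had 255 CPM (152 to 371) and 189 CPM (98.3 to 344), so the ranges of both genes overlapped between clusters 1 and 2. In cluster 4 the medians of Slc17a6 and Dusp2 were 6.82 and 145 CPM.

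The label genes were found in a minority of cells at this depth. After every cell was thinned to 1500 UMIs, 10.6% to 27.2% of cluster 1 cells per library (median 16.3%) carried a UMI of at least 1 of the 5 genes, against 3.35% to 11.9% (median 5.36%) of all other cells. At least 2 of the genes were found in a median of 2.18% of cluster 1 cells and 0.178% of all other cells. Nr4a1 was found in a median of 6.40% of the cluster's cells and 2.54% of the others, or 11.7% and 4.77% without thinning. Across cells of the cluster the strongest pair, Ccl4 and Rgs16, had a median r of 0.112 over libraries, a weak value in counts this sparse. Il17a, as a gene that marks other cells of these cultures, was found in a median of 0.230% of cluster 1 cells and 1.14% of the others.

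The other leading genes fell into signaling, ribosome and metabolic roles. Dusp2 had 152 to 371 CPM (median 255) in cluster 1 and 54.2 to 213 CPM (median 106) in all other cells, a ratio of 1.17 (range 0.80 to 1.58). Hivep3, a zinc finger protein, had 112 to 233 CPM (median 145) in cluster 1 and 30.1 to 112 CPM (median 57.2) in all other cells. Nolc1, a nucleolar phosphoprotein, had 99.5 to 168 CPM (median 123) in cluster 1 and 33.3 to 72.6 CPM (median 45.0) in all other cells. In these 3 genes cluster 1 was higher in every library, which was a condition for being a leading gene. Srm (spermidine synthase), Grwd1, Rrp15 (ribosomal RNA processing), Gpatch4 and Atad3a (a mitochondrial ATPase) had median ratios of 1.22, 1.2, 1.2, 1.11 and 1.10. Egln3, a prolyl hydroxylase of HIF proteins, Idi1, an enzyme of sterol synthesis, and Tgm2, a transglutaminase, had ratios of 1.19, 1.15 and 1.14. Crabp2 (1.60), Nefh (1.22), Ifrd2 (1.17) and Car12 (1.12) completed the 20 leading genes. Several of them had a higher median in another cluster. Cluster 4 exceeded cluster 1 in Egln3 (125 CPM in cluster 1 and 161 CPM in cluster 4), Srm (119 and 130.0 CPM) and Ifrd2 (26.1 and 33.0 CPM), and by smaller margins in Atad3a, Gpatch4 and Rrp15. Cluster 7 was higher in Gpatch4, Rrp15 and Idi1, and cluster 11 in Idi1 and Nefh. Of the 11386 genes tested, 2029 at 10 CPM or more were higher in the cluster in all 8 libraries, 37 of them with a median ratio of 1 or more, and 1547 were lower in all 8, 33 of them at -1 or less.

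Gene lists described the same cells from other sides. Of all 11386 genes tested, 22.5% were higher and 18.2% lower in the cluster in all 8 libraries, whatever their level. Of 24 Myc and ribosome biogenesis genes, 22 were higher in all 8 libraries (median log2 ratio 0.75, against 0.02 over all 11386 genes). Of 26 tested immediate early and T cell receptor signal genes, 16 were higher and 1 was lower in all 8 (median 0.41). For glycolysis the count was 10 of 18 higher, for TNF family and growth cytokines 9 of 18, and for T cell identity genes 9 of 15. Of 17 genes of naive and memory T cells, 11 were lower in all 8 libraries (median -0.32), and G2/M genes in 43 of 52 (median -0.57). All other cells hold every other cluster, any cycling ones included, and the G2/M list was not compared cluster by cluster. Of the helper cytokines, Il17a had medians of 2.03 CPM in the cluster and 20.7 CPM in all other cells, Il17f 6.09 and 29.6 CPM, and Il22 5.75 and 17.6 CPM. All 3 were lower in the cluster in every library. Cluster 2, part of all other cells, had the highest medians, at 111, 139 and 115 CPM. Cluster 1 ranked 7 of the 12 clusters by median for each gene. It lay above cluster 0, which had 0.960, 4.05 and 2.32 CPM, so low levels were not particular to cluster 1.

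**Figure D2:**
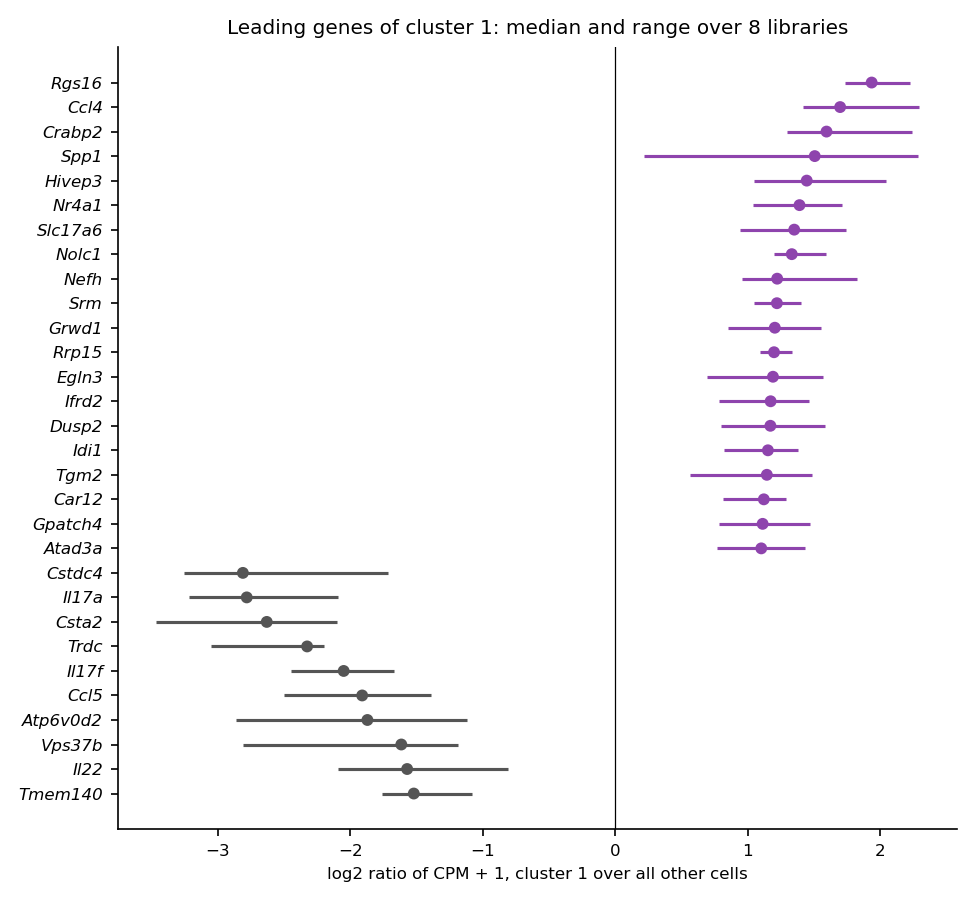
Log2 ratio of CPM + 1, cluster 1 over all other cells, for the 20 highest and 10 lowest genes by the naming rule. Points are medians and lines the range over 8 libraries. No line crosses 0, which the naming rule required, Rgs16 leads at 1.94, and Il17a lies at -2.78 among the lowest genes.

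Markers of the labelled cell type were present, and the levels of other cell types' markers varied by list. Cd4 ranged from 89.7 to 131 CPM and Cd3e from 257 to 482 CPM in cluster 1. Summed macrophage and monocyte markers reached 23.4 to 35.1 CPM in KO libraries and 17.9 to 27.5 CPM in WT libraries, with 8 of 15 members above 0, Csf1r at 0 and Cd68 the most abundant. Summed NK cell markers reached 4.51 to 12.7 CPM in KO and 3.78 to 17.9 CPM in WT, with 9 of 10 members above 0. CD8 T cell markers reached 12.2 to 36.2 CPM in KO and 10.9 to 22 CPM in WT, and gamma-delta T cell markers 2.26 to 5.75 CPM in KO and 1.2 to 2.84 CPM in WT. Summed B cell markers reached 29.0 to 30.8 CPM in KO and 33.0 to 42.5 CPM in WT, with Pax5 at 0. Summed dendritic cell markers reached 233 to 256 CPM in KO and 201 to 232 CPM in WT, with 5 of 10 members in the matrix, all 5 above 0, and Bst2, which is also on the interferon response list, the most abundant. Summed regulatory T cell markers, led by Tnfrsf4, reached 1392 to 1576 CPM in KO and 1711 to 1886 CPM in WT. All KO libraries thus lay above all WT libraries for the dendritic cell list and below them for the B cell and regulatory T cell lists, and the part of these cells in the results was not tested.

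KO and WT were compared within cluster 1 on the counts summed per library, over both cultures with culture in the model. The KO cells carried more transcripts of amino acid response genes such as Nupr1, Cth and Asns, of the secreted or granule proteins Spp1 and Nkg7, and less of Il17a, Il17f, Ifitm3 and genes of naive cells such as Klf2 and Satb1. Of 11386 genes tested, 846 passed (7.43%), 426 higher in KO (3.74%) and 420 lower (3.69%), and the libraries of KO and WT did not overlap for 12.2% of genes. The largest rises and falls named below were picked from genes without overlap, so their lack of overlap adds nothing to the test. The count rests on single libraries: it was 345 without WT Th22 replicate 2, 370 without WT Th17 replicate 1, 436 without WT Th17 replicate 2 and 560 without KO Th17 replicate 1. With the libraries of 1 genotype and number summed over both cultures, 196 genes passed, 191 of them among the 846. Same-numbered Th22 and Th17 libraries deviated together (r = 0.445 in KO, 0.187 in WT), and the main fit treats them as independent. Among the genotype fits, only the summed one takes each such pair as a single unit.

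The label genes moved in different directions between genotypes. Spp1 had 14.3 and 28.1 CPM in KO Th22, 67.8 and 77.9 CPM in KO Th17, 6.39 and 3.10 CPM in WT Th22 and 10.9 and 6.34 CPM in WT Th17. All KO libraries lay above all WT libraries, and the difference was 2.68 ± 0.35 (edgeR adjusted p = 0.00636). The call was lost when both KO libraries numbered 2 were left out, a split chosen after seeing the data. Nr4a1 had 32.1 and 43.7 CPM in KO Th22, 34.7 and 46.5 CPM in KO Th17, 51.5 and 45.5 CPM in WT Th22 and 66.8 and 68.4 CPM in WT Th17. Within each culture KO lay below WT, but KO Th17 replicate 2 exceeded WT Th22 replicate 2, and the difference of -0.54 ± 0.13 passed (edgeR adjusted p = 0.0253). Without WT Th17 replicate 1, WT Th17 replicate 2 or WT Th22 replicate 1, or with summed libraries, it did not pass (adjusted p up to 0.0884 without a library). Slc17a6 rose by 0.78 ± 0.12 (edgeR adjusted p = 0.00233), with 23.4 and 28.0 CPM in KO Th22, 42.7 and 45.0 CPM in KO Th17, 14.8 and 12 CPM in WT Th22 and 32.9 and 23.4 CPM in WT Th17. KO exceeded WT within each culture and the call stood in all 19 alternatives.

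Ccl4 and Rgs16 depended on the KO library number. Ccl4 had 33.7 and 114 CPM in KO Th22, 54.8 and 122 CPM in KO Th17, 21.5 and 24.1 CPM in WT Th22 and 32.5 and 33.4 CPM in WT Th17. The KO libraries numbered 2 stood far above those numbered 1, all 4 KO libraries exceeded the 4 WT libraries, and the difference of 1.57 ± 0.46 did not pass (edgeR adjusted p = 0.115). Without both KO libraries numbered 1 the difference in Ccl4 was 2.11, and without both numbered 2 it was 0.66. This split was chosen after seeing the data. It removes the spread between the KO library numbers, so no p-value from fits with this split is given. Calls kept or lost in such fits only describe how results moved. Rgs16 had 18.2 and 39.1 CPM in KO Th22, 32.9 and 56.2 CPM in KO Th17, 12.9 and 12.5 CPM in WT Th22 and 23.0 and 18.2 CPM in WT Th17. It was higher in KO within each culture, at 1.16 ± 0.27 (edgeR adjusted p = 0.0449), and stayed past the threshold in 10 of 19 alternatives, among them 2 of the 8 that left out a library. Ccl3, a chemokine whose gene neighbors and resembles Ccl4, so that reads could be shared, had 5.78 and 22.7 CPM in KO Th22, 15.4 and 20.4 CPM in KO Th17, 2.76 and 2.91 CPM in WT Th22 and 4.86 and 4.95 CPM in WT Th17. All KO libraries exceeded all WT libraries by 2.12 ± 0.44 (edgeR adjusted p = 0.0378), and 2 of 8 fits without a library kept the call. Xcl1, a chemokine for dendritic cells, passed with 0.482 and 2.13 CPM in KO Th22, 2.12 and 1.05 CPM in KO Th17, 0 and 0 CPM in WT Th22 and 0.389 and 0.495 CPM in WT Th17, and lost its call in 5 of 8 fits without a library. Rgs1, from the same family as Rgs16, had 102 and 87.4 CPM in KO Th22, 134 and 124 CPM in KO Th17, 47.9 and 54.9 CPM in WT Th22 and 60.3 and 72.4 CPM in WT Th17, and all KO libraries exceeded all WT libraries (0.92 ± 0.09, edgeR adjusted p = 7.14e-05).

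Beyond Spp1, the largest rises in KO were in genes of mixed roles. Nkg7 (chr7:43437073-43438249 on the plus strand, ENSMUSG00000004612), a membrane protein of cytotoxic granules, had 33.8 and 71.8 CPM in KO Th22, 69.7 and 82.6 CPM in KO Th17, 11.5 and 11.7 CPM in WT Th22 and 15.1 and 18.4 CPM in WT Th17. The groups did not overlap and the difference was 2.19 ± 0.23 (edgeR adjusted p = 0.00130). Trat1, a T cell receptor adaptor, averaged 21.5 ± 7.63 CPM in KO and 6.90 ± 2.09 CPM in WT (SD, n = 4 each), a difference of 1.63 ± 0.17. Nek6, a mitotic kinase, averaged 29.4 ± 6.52 CPM in KO and 11.6 ± 1.40 CPM in WT, a difference of 1.32 ± 0.10. Both passed without any 1 library. Cdc42ep3, an effector of the GTPase Cdc42, and Stc2, the glycoprotein stanniocalcin, rose by 1.23 and 1.19. Cox6a2, a subunit of cytochrome c oxidase, had 35.1 and 22.9 CPM in KO Th22, 74.5 and 32.8 CPM in KO Th17, 11 and 8.83 CPM in WT Th22 and 17.1 and 15.1 CPM in WT Th17, which was 1.63 ± 0.29. Cd74, the invariant chain of MHC class II, averaged 23.1 ± 8.09 CPM in KO and 8.15 ± 1.88 CPM in WT, a difference of 1.46 ± 0.28. The calls of Cox6a2 and Cd74 were each lost without WT Th17 replicate 1, WT Th17 replicate 2, KO Th22 replicate 1 or WT Th22 replicate 2 (edgeR adjusted p up to 0.0823 and 0.0686). Of 7 MHC class II genes tested, 1 rose and 1 fell, when 3.74% of all genes rose and 3.69% fell. The summed list reached 97.6 to 135 CPM in KO and 111 to 121 CPM in WT, so the list as a whole overlapped. Of 10 cytotoxic granule genes tested, Nkg7 and Lamp1 rose, the call of Lamp1 standing in 2 of 8 fits without a library (edgeR adjusted p up to 0.124), and the summed NK cell markers given above overlapped between KO and WT.

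The largest falls included Ifitm3 (chr7:141009586-141010770 on the minus strand, ENSMUSG00000025492), an interferon-induced membrane protein with close relatives whose reads could be shared. It had 37.2 and 46.1 CPM in KO Th22, 12.3 and 13.6 CPM in KO Th17, 151 and 144 CPM in WT Th22 and 61.9 and 47.0 CPM in WT Th17. The groups did not overlap, and the difference was -1.93 ± 0.11 (edgeR adjusted p = 4.78e-07). Its relative Ifitm1 had 65.2 and 36.1 CPM in KO Th22, 5.35 and 6.83 CPM in KO Th17, 269.8 and 286 CPM in WT Th22 and 66.2 and 51.8 CPM in WT Th17, a difference of -2.78 ± 0.25. Ecm1, an extracellular matrix protein, averaged 69.3 ± 19.7 CPM in KO and 171 ± 29.7 CPM in WT, a difference of -1.32 ± 0.11. Tent5a, a poly(A) polymerase, and Bcl2l11, which promotes cell death, differed by -1.25 and -1.05. Ltb4r1, a leukotriene B4 receptor, Sdcbp2 and Serpinb1a, a protease inhibitor, differed by -1.02, -1.02 and -0.99, and Fam102a by -0.88. In all of these from Ecm1 to Fam102a the KO libraries lay below all WT libraries, which was a condition for naming them. The call of each stood without any 1 library. Tgm2, one of the leading genes of the cluster, averaged 30.2 ± 9.73 CPM in KO and 57.6 ± 3.77 CPM in WT, a difference of -0.92 ± 0.21 (edgeR adjusted p = 0.0412) that did not pass when any 1 of WT Th17 replicates 1 and 2, KO Th22 replicates 1 and 2 or WT Th22 replicates 1 and 2 was left out (adjusted p up to 0.110). Of 27 tested interferon response genes, 3 rose (Ifih1, Irf7 and Bst2) and 3 fell, when 3.74% of all genes rose and 3.69% fell. None rose without WT Th17 replicate 1 or with summed libraries, and 1 rose without KO Th17 replicate 1, WT Th22 replicate 1 or WT Th22 replicate 2, while 2 to 4 fell over the alternatives.

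**Figure D3:**
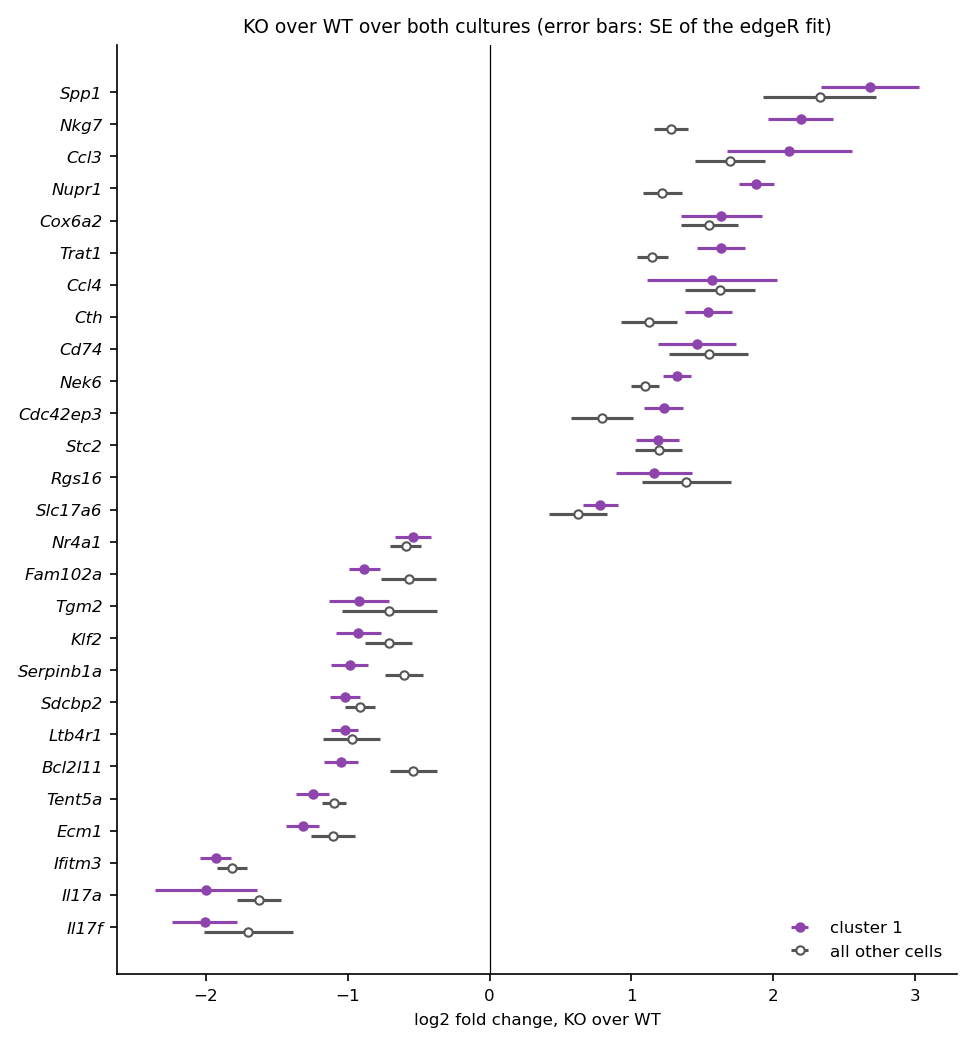
Log2 fold change of KO over WT over both cultures, for the genes with the largest rises and falls and for Ccl4, Ccl3, Rgs16, Slc17a6, Nr4a1, Il17f, Il17a and Klf2. Filled symbols are cluster 1 and open symbols all other cells of the same libraries, and bars are the SE of the edgeR fit. Of the genes drawn, Spp1 is highest in cluster 1 at 2.68 and Il17f lowest at -2.01, and both cell sets lie on the same side of 0 for every gene drawn. Nkg7 lies farther from 0 in cluster 1, a difference that did not pass (adjusted p = 0.510, edgeR).

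Genes of the amino acid response driven by ATF4, a factor that restores amino acid supply under shortage, rose in KO in 14 of 24, and 1 fell, when 3.74% of all genes were higher. Their median difference was 0.53, against a median near 0 for all genes tested. Nupr1 (chr7:126623249-126630861 on the minus strand, ENSMUSG00000030717), a stress-induced chromatin protein, had 110.0 and 79.0 CPM in KO Th22, 163 and 134 CPM in KO Th17, 23.3 and 25.3 CPM in WT Th22 and 37.1 and 47.4 CPM in WT Th17. All KO libraries exceeded all WT libraries by 1.88 ± 0.12 (edgeR adjusted p = 1.08e-05). Asns, asparagine synthetase, had 143 and 137 CPM in KO Th22, 162 and 145 CPM in KO Th17, 75.4 and 68.5 CPM in WT Th22 and 101 and 100.1 CPM in WT Th17. Again no KO library overlapped a WT library (0.78 ± 0.08, edgeR adjusted p = 0.000165). Cth, which makes cysteine, averaged 20.2 ± 2.31 CPM in KO and 7.24 ± 3.26 CPM in WT (SD, n = 4 each), a difference of 1.54 ± 0.17. Atf5, a related factor, averaged 114 ± 9.14 CPM in KO and 80.0 ± 9.43 CPM in WT, a difference of 0.51 ± 0.07. The serine synthesis genes Psph, Phgdh and Psat1 rose by 0.65, 0.55 and 0.44, and the transporter subunits Slc7a5 and Slc3a2 by 0.67 and 0.42. Ddit4, an inhibitor of mTORC1, differed by -0.35, the opposite way. Atf4 itself did not pass (0.01 ± 0.08, edgeR adjusted p = 0.948). The number of members that rose ranged from 8 to 16 over the alternatives, lowest with summed libraries.

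**Figure D4:**
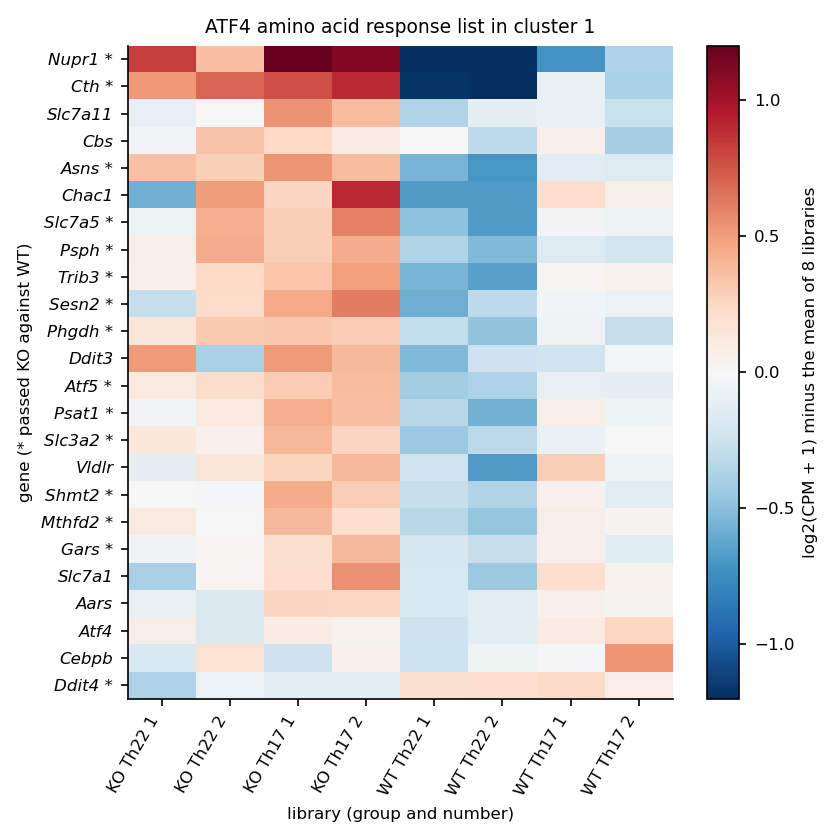
Levels of the 24 ATF4 list genes in cluster 1, as log2(CPM + 1) minus the mean of the 8 libraries (color), with genes in rows from the largest rise in KO to the largest fall and libraries in columns. Values beyond the color bar take its end color, and stars mark genes that passed between KO and WT. Nupr1, Cth and Asns are red in KO and blue in WT, and Ddit4, the last row, runs the other way.

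Markers of naive and resting cells fell in 7 of 17 and rose in none, when 3.69% of all genes fell. Their median difference was -0.39. Klf2, a factor of quiescent T cells, had 27.1 and 25.8 CPM in KO Th22, 10.6 and 14.9 CPM in KO Th17, 40.5 and 40.7 CPM in WT Th22 and 36.2 and 26.1 CPM in WT Th17. KO lay below WT within each culture (-0.93 ± 0.16, edgeR adjusted p = 0.00636). The call was lost when both KO libraries numbered 2 were left out, a split chosen after seeing the data. Satb1, a chromatin organizer, and Tcf7, a factor of naive and stem-like cells, differed by -0.54 and -0.51. S1pr1, Lef1 and Btg1 also fell, the weakest at -0.36 (Lef1). With summed libraries 4 of 17 passed, and over the alternatives 4 to 10 did. Of 6 regulatory T cell markers tested, Ctla4, Tnfrsf18 and Lrrc32 fell, by 0.85, 0.48 and 1.13 on the log2 scale.

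Of 16 Th17 core genes, 6 fell in KO and none rose, when 3.69% of all genes fell and 3.74% rose. Il17f had 1.93 and 2.82 CPM in KO Th22, 1.70 and 4.18 CPM in KO Th17, 9.14 and 7.89 CPM in WT Th22 and 16 and 11.8 CPM in WT Th17. All KO libraries lay below all WT libraries (-2.01 ± 0.23, edgeR adjusted p = 0.000588). Il17a had 0.0963 and 0.798 CPM in KO Th22, 2.29 and 1.32 CPM in KO Th17, 2.13 and 1.97 CPM in WT Th22 and 9.92 and 4.65 CPM in WT Th17. KO lay below WT within each culture, and the difference was -2.0 ± 0.36 (adjusted p = 0.00728). Both calls stood in all 19 alternatives. Hif1a, a factor of low-oxygen responses, averaged 402 ± 24.8 CPM in KO and 594 ± 29.8 CPM in WT, a difference of -0.56 ± 0.07. Tmem176a and Tmem176b, overlapping genes whose reads could be shared, and Ltb4r1 differed by -1.35, -1.50 and -1.02. Il24, a cytokine of the IL-10 family, differed by -1.99 ± 0.16. Il22 did not pass (-0.15 ± 0.21, edgeR adjusted p = 0.726), nor did Il2 (0.84 ± 0.59, adjusted p = 0.463), Tnf (0.29 ± 0.16, 0.303) or Csf2 (0.64 ± 0.33, 0.275). Ifng had 0.193 and 0.266 CPM in KO Th22, 1.36 and 2.86 CPM in KO Th17, 0 and 0.845 CPM in WT Th22 and 0 and 0 CPM in WT Th17, too few transcripts for a fold change. Tbx21, the Th1 factor, had 2.79 and 4.42 CPM in KO Th22, 5.94 and 5.71 CPM in KO Th17, 1.02 and 1.78 CPM in WT Th22 and 1.95 and 4.06 CPM in WT Th17, and KO exceeded WT within each culture (1.15 ± 0.25, edgeR adjusted p = 0.0149). That call was lost without WT Th17 replicate 1 (adjusted p up to 0.0689) and with summed libraries. Cd69 and Il2ra, markers of activation, did not pass (0.10 ± 0.08 and -0.14 ± 0.07).

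Of all genes tested, 3.74% rose and 3.69% fell, which is the share to set beside the list counts that follow. Of the 26 immediate early and T cell receptor signal genes, Cd5 rose and Nr4a1 and Fosl2 fell, and the median was -0.11. The calls of Cd5 and Fosl2 each stood in 2 of 8 fits without a library (edgeR adjusted p up to 0.157 and 0.131), and no member passed without WT Th17 replicate 1, without WT Th17 replicate 2 or with summed libraries. The list moved with the KO library number: its median was 0.11 without both KO libraries numbered 1 and -0.34 without both numbered 2. Of 24 Myc and ribosome biogenesis genes, Hspe1 and Hspd1 rose at a median of 0.25. That list also rested on the KO library number: its median was 0.43 without both KO libraries numbered 1 and 0.01 without both numbered 2. Without KO Th22 replicate 1 alone 10 rose, and none passed without WT Th17 replicate 1, without WT Th22 replicate 2 or with summed libraries. Of 19 NF-kB target genes 4 rose and 2 fell, with Bcl2a1b (1.18 ± 0.12) and Bcl2a1d (1.47 ± 0.19), survival genes with near-identical copies, the largest of those that rose. Without WT Th17 replicate 1 or WT Th22 replicate 2, 2 rose and none fell, and no fall passed without KO Th17 replicate 1 or WT Th17 replicate 2 either. No member passed among 18 glycolysis genes and 13 mitochondrially encoded genes. Of 7 aryl hydrocarbon receptor targets, Tiparp fell by 0.49 on the log2 scale, a call that stood in 1 of 8 fits without a library, the one without KO Th22 replicate 1 (edgeR adjusted p up to 0.130), and not with summed libraries.

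KO and WT were also compared within single cultures. In Th22, 137 genes passed between KO and WT (1.2%), 60 higher (0.527%) and 77 lower (0.676%). In Th17, 247 passed (2.17%), 98 higher (0.861%) and 149 lower (1.31%). With 2 libraries a side, 45.7% of all genes in Th22 and 46.9% in Th17 had KO and WT libraries that did not overlap, so a lack of overlap within a culture is not read as a result. The test of whether the genotype effect differed between Th22 and Th17 called 0 of 11386 genes with edgeR, 627 had an unadjusted p under 0.05, and DESeq2 called 26. Nupr1 rose by 1.96 ± 0.18 in Th22 and 1.81 ± 0.18 in Th17, and Ifitm3 differed by -1.82 ± 0.14 in Th22 and -2.07 ± 0.16 in Th17. Spp1 was 2.16 ± 0.44 in Th22, where it did not pass (edgeR adjusted p = 0.0893), and 3.08 ± 0.41 in Th17, where it did (adjusted p = 0.0181). Nr4a1 was -0.35 ± 0.17 in Th22 (adjusted p = 0.349) and -0.73 ± 0.16 in Th17 (adjusted p = 0.0456). In Th17 the call of Spp1 was lost without any 1 of the 4 Th17 libraries, and that of Nr4a1 without KO Th17 replicate 1, either WT Th17 library or either WT Th22 library. Single libraries moved the counts widely. The Th22 count was 4 without WT Th22 replicate 2, 9 without WT Th22 replicate 1, 56 without WT Th17 replicate 1 and 67 without its replicate 2. Leaving out KO Th22 replicate 1 gave 366 and leaving out KO Th22 replicate 2 gave 89. The Th17 count was 24 and 32 without WT Th17 replicates 2 and 1, 70 without KO Th17 replicate 1, 119 and 121 without WT Th22 replicates 1 and 2, and 468 and 470 without KO Th22 replicates 1 and 2.

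Th22 and Th17 were compared within cluster 1 over both genotypes. Th22 cells carried more transcripts of aryl hydrocarbon receptor targets such as Tiparp and Cyp1a1, of Plac8, Gzmb and Maf, and fewer of Itga3, Inhba, Pdgfb and ATF4 list genes. Of 11386 genes, 350 passed (3.07%), 169 higher in Th22 (1.48%) and 181 lower (1.59%), and the libraries did not overlap for 6.56% of genes. Here too the largest rises and falls were picked from genes without overlap, so their lack of overlap adds nothing to the test. With each genotype and library number as a block, 935 passed, 423 higher and 512 lower, including 347 of the 350. That pairing of the cultures was taken from these counts and not from the labels. The count was 134 without WT Th22 replicate 2 and 146 without WT Th17 replicate 1.

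Aryl hydrocarbon receptor targets were higher in Th22 in 6 of 7 tested (median log2 difference 1.69), when 1.48% of all genes were. Cyp1a1, a monooxygenase that this receptor switches on, had 8.29 and 4.36 CPM in KO Th22, 8.20 and 9.11 CPM in WT Th22, 0 and 0.0697 CPM in KO Th17 and 0 and 0.0990 CPM in WT Th17. Cyp1b1, a related enzyme, had 5.20 and 2.07 CPM in KO Th22, 4.97 and 6.57 CPM in WT Th22, 0.0848 and 0 CPM in KO Th17 and 0 and 0.0990 CPM in WT Th17. All Th22 libraries carried both, and each Th17 library held at most 1 UMI of either, so no fold change is given. Tiparp, an ADP-ribosyltransferase of the same response, had 56.6 and 43.1 CPM in KO Th22, 60.3 and 60.6 CPM in WT Th22, 15.1 and 11 CPM in KO Th17 and 23.3 and 20.8 CPM in WT Th17. The Th22 libraries all exceeded the Th17 libraries, by 1.69 ± 0.13 (edgeR adjusted p = 3.22e-05). Asb2, a ubiquitin ligase subunit, averaged 55.9 ± 3.97 CPM in Th22 and 22 ± 3.96 CPM in Th17 (SD, n = 4 each), a difference of 1.36 ± 0.10. Ahrr, the repressor of the receptor, rose by 2.21 ± 0.29. Il22, the cytokine that names the culture, had 6.26 and 9.63 CPM in KO Th22, 10.3 and 12.3 CPM in WT Th22, 4.84 and 4.39 CPM in KO Th17 and 2.63 and 4.55 CPM in WT Th17, and all Th22 libraries exceeded all Th17 libraries (1.21 ± 0.22, edgeR adjusted p = 0.0111). That call was lost (adjusted p = 0.0560) in cells thinned to 1500 UMIs. Summed CD8 T cell markers reached 10.9 to 13.8 CPM in Th22 libraries and 21.8 to 36.2 CPM in Th17 libraries, and their part in the results was not tested. Nfe2l2 was the member that did not pass (0.17 ± 0.13).

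The other large rises in Th22 were Plac8, Cldnd1, Hic1, Dkkl1, Cpox, Gzmb, Igflr1 and Maf. Plac8 (chr5:100553725-100572245 on the minus strand, ENSMUSG00000029322) had 24.9 and 29.2 CPM in KO Th22, 32.8 and 54.5 CPM in WT Th22, 5.94 and 8.01 CPM in KO Th17 and 7.10 and 13.4 CPM in WT Th17. The groups did not overlap, and the difference was 2.02 ± 0.22 (edgeR adjusted p = 0.00173). The call was lost without both KO libraries numbered 1 or both numbered 2, a split chosen after seeing the data. Hic1, a transcriptional repressor, Dkkl1, and Cpox, an enzyme of heme synthesis, rose by 1.23, 1.12 and 1.09 and stood without any 1 library, as did Igflr1 (0.86). Cldnd1 rose by 1.36 ± 0.22 and lost its call without WT Th17 replicate 1 or WT Th22 replicate 2 (edgeR adjusted p up to 0.0645). Maf, a factor of helper T cells, averaged 46.4 ± 4.91 CPM in Th22 and 26.7 ± 7.40 CPM in Th17, a difference of 0.81 ± 0.15 that did not pass in 5 of 8 fits without a library, those without KO Th17 replicate 1, WT Th17 replicate 2, KO Th22 replicate 2 and WT Th22 replicates 1 and 2 (edgeR adjusted p up to 0.0731). Gzmb, granzyme B, had 352 and 558 CPM in KO Th22, 311 and 350.1 CPM in WT Th22, 166 and 274 CPM in KO Th17 and 137 and 171 CPM in WT Th17. The groups did not overlap (1.07 ± 0.20, edgeR adjusted p = 0.0299), but without WT Th17 replicate 1 or 2, KO Th22 replicate 2, or WT Th22 replicate 1 or 2 it did not pass (adjusted p up to 0.0930).

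Among the falls, Itga3, an integrin subunit, had 6.55 and 6.97 CPM in KO Th22, 12.1 and 11 CPM in WT Th22, 18.0 and 21.4 CPM in KO Th17 and 26.1 and 26.1 CPM in WT Th17. The Th22 libraries all lay below the Th17 libraries (-1.35 ± 0.11, edgeR adjusted p = 1.54e-05). Inhba, a subunit of activin, averaged 11.9 ± 3.89 CPM in Th22 and 26.8 ± 6.44 CPM in Th17, a difference of -1.18 ± 0.09. Pdgfb, a growth factor, and Ramp1, a co-receptor for calcitonin gene-related peptide, differed by -1.14 and -1.02. Sox5, Atf3 and Pik3ap1, a phosphoinositide kinase adaptor, differed by -0.99, -0.96 and -0.84. Odc1, which makes polyamines under Myc, Cd226, an activating receptor, and Mdfic differed by -0.81, -0.80 and -0.78. All of these 10 genes lay lower in every Th22 library than in every Th17 library, which was a condition for naming them. Their calls stood without any 1 library. Il24 (-2.11 ± 0.16), Il1rn, an IL-1 receptor antagonist (-2.01 ± 0.32), and Il17a (-1.79 ± 0.36) also fell, the last with its call lost without KO Th17 replicate 1, WT Th17 replicate 1 or WT Th22 replicate 1 or 2 (edgeR adjusted p up to 0.104).

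**Figure D5:**
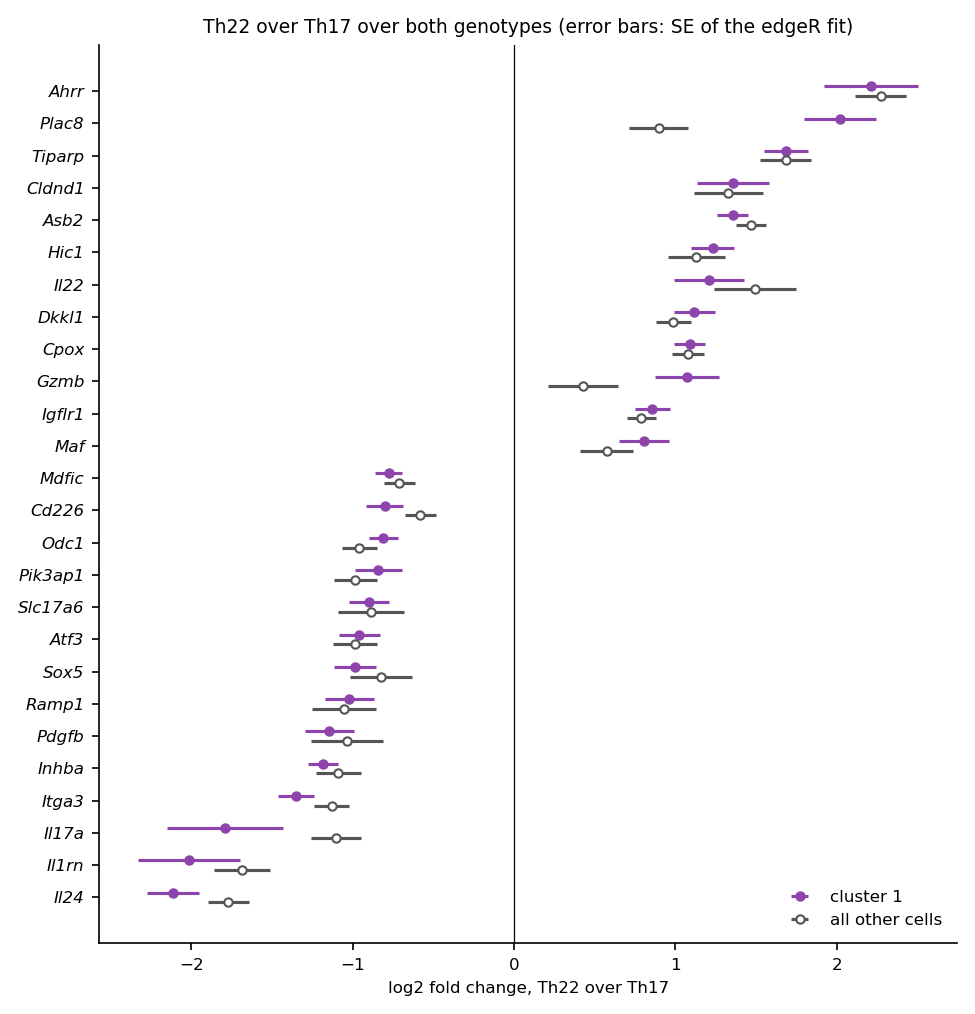
Log2 fold change of Th22 over Th17 over both genotypes, for a selection of the genes described that leaves out Ifitm1, and Cyp1a1 and Cyp1b1, which were near 0 in Th17. Filled symbols are cluster 1 and open symbols all other cells, and bars are the SE of the edgeR fit. Of the genes drawn, Ahrr and Plac8 lie highest in cluster 1 and Il24 lowest, and Gzmb and Plac8 lie farther from 0 in cluster 1 than in all other cells, a difference that passed for Gzmb and not for Plac8 (adjusted p = 0.395, edgeR).

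Of the 24 ATF4 list genes, 9 fell in Th22 and none rose (median -0.32), when 1.59% of all genes fell. With the blocks, 16 fell, and leaving out single libraries left as few as 1, namely without WT Th17 replicate 1 or WT Th22 replicate 2, and 4 without KO Th17 replicate 1, WT Th17 replicate 2 or WT Th22 replicate 1. Nupr1 had 110.0 and 79.0 CPM in KO Th22, 23.3 and 25.3 CPM in WT Th22, 163 and 134 CPM in KO Th17 and 37.1 and 47.4 CPM in WT Th17. Th22 lay below Th17 within each genotype (-0.72 ± 0.12, edgeR adjusted p = 0.00665). Psat1, Trib3 and Mthfd2 differed by -0.41, -0.45 and -0.35, with calls that stood in 6, 4 and 3 of 8 fits without a library. Of 27 interferon response genes, 7 rose and none fell (median 0.39), when 1.48% of all genes rose, and 15 rose with the blocks. Without WT Th17 replicate 1 or WT Th22 replicate 2, 3 rose, and without KO Th17 replicate 1 or KO Th22 replicate 2, or with median UMIs per cell as a covariate, 4 did. Ifitm3 differed by 1.55 ± 0.11 and Ifitm1 by 2.55 ± 0.25, while Ddx58, a sensor of viral RNA, and Ifi47 differed by 0.68 and 0.66, and the call of Ifi47 was lost in 2 of 8 fits without a library (edgeR adjusted p up to 0.0588). Of 19 NF-kB target and feedback genes, 5 fell (median -0.26), and 9 fell with the blocks. Without WT Th17 replicate 1, 2 fell, and without KO Th17 replicate 1, WT Th22 replicate 1 or WT Th22 replicate 2, 3 did. Nfkb2 (-0.68 ± 0.09) and Rel (-0.52 ± 0.09), subunits of NF-kB, were among them, Rel with a call that stood in 7 of 8 fits without a library.

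Of the label genes, only Slc17a6 passed between Th22 and Th17 without the blocks. Slc17a6 had 23.4 and 28.0 CPM in KO Th22, 14.8 and 12 CPM in WT Th22, 42.7 and 45.0 CPM in KO Th17 and 32.9 and 23.4 CPM in WT Th17, and it fell by 0.90 on the log2 scale (SE 0.12, edgeR adjusted p = 0.00126). Th22 lay below Th17 within each genotype. The blocks pair same-numbered libraries by a correlation seen in these counts, 0.445 in KO and 0.187 in WT, and not by the labels. Calls gained only with the blocks rest on that choice. With the blocks, Rgs16 (-0.67 ± 0.08, edgeR adjusted p = 6.90e-05), Ccl4 (-0.44 ± 0.09, 0.0116), Spp1 (-1.55 ± 0.26, 0.0447) and Nr4a1 (-0.29 ± 0.08, 0.0345) passed too, all lower in Th22, and without them their adjusted p were 0.315, 0.778, 0.0811 and 0.311. Gpr65 (0.0218), Il17f (0.0121) and Tbx21 (0.0131) likewise passed only with the blocks. Klf2 passed without them (0.0421) and not with them (0.107), and 2 of 8 fits without a library kept its call.

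Whether the genotype effect in cluster 1 differed from that in all other cells of the same libraries was tested for 12840 genes, with the library as a block, and 7 passed (0.0545%), 3 with a higher (0.0234%) and 4 with a lower (0.0312%) difference in the cluster. Nupr1 was raised in both, by 1.88 ± 0.12 in cluster 1 and 1.22 ± 0.14 in all other cells, and the difference between them was 0.67 ± 0.07 (adjusted p = 8.01e-05). Timp1, an inhibitor of metalloproteinases, differed by 0.49 ± 0.08 (adjusted p = 0.0350) and Upp1, uridine phosphorylase, by 0.47 ± 0.08 (adjusted p = 0.0153). Timp1 was 0.70 ± 0.22 between KO and WT in cluster 1 and 0.21 ± 0.15 in all other cells. Upp1 was -0.06 ± 0.09 between KO and WT in cluster 1 and -0.53 ± 0.10 in all other cells. On the lower side, Ifngr1, a chain of the interferon gamma receptor, differed by -0.46 ± 0.06 (adjusted p = 0.00407), and Serpinb1a by -0.40 ± 0.07 (adjusted p = 0.0350). Ifngr1 was -0.75 ± 0.32 in cluster 1 and -0.31 ± 0.25 in all other cells. Serpinb1a was -0.99 ± 0.13 and -0.60 ± 0.13. Gadd45g, a stress protein, differed by -0.40 ± 0.06 (adjusted p = 0.00407), with -0.16 ± 0.11 in cluster 1 and 0.23 ± 0.12 in all other cells. Tnfrsf18, the costimulatory receptor GITR, differed by -0.36 ± 0.05 (adjusted p = 0.00407), with -0.48 ± 0.08 in cluster 1 and -0.13 ± 0.07 in all other cells. Between KO and WT, Ifngr1, Timp1 and Gadd45g passed in neither cell set. These p are from edgeR's quasi-likelihood test. Nupr1 and Ifngr1 passed in all 14 alternatives. Timp1 and Serpinb1a were lost without WT Th17 replicate 1, WT Th17 replicate 2 or WT Th22 replicate 1, and also without KO Th22 replicate 1 or 2 for Timp1 and without KO Th17 replicate 1 or WT Th22 replicate 2 for Serpinb1a. Upp1 was lost without WT Th17 replicate 1, WT Th22 replicate 1 or WT Th22 replicate 2, and Gadd45g and Tnfrsf18 without WT Th17 replicate 2 or WT Th22 replicate 2. The count rose to 41 when KO Th17 replicate 2 was left out, to 29 for KO Th22 replicate 1 and to 13 for KO Th22 replicate 2. It fell to 4 when WT Th17 replicate 1 or WT Th22 replicate 2 was left out and to 3 for WT Th17 replicate 2. None of the 5 label genes passed, and Gpr65 did not either.

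The polarization effect differed from that in all other cells for 1 of 12840 genes (0.00779%), Gzmb. It was higher in Th22 by 1.07 ± 0.20 in cluster 1 and by 0.43 ± 0.22 in all other cells, and the difference was 0.66 ± 0.06 (adjusted p = 6.14e-06) by edgeR. In all other cells Gzmb was at 166 and 311 CPM in KO Th22, 156 and 171 CPM in WT Th22, 126 and 211 CPM in KO Th17 and 107 and 149 CPM in WT Th17. There the libraries of Th22 and Th17 overlapped, and in cluster 1 they did not. This call stood in all 14 alternatives. The count was 11 without KO Th17 replicate 2.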

How the data were processed

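Single-cell RNA was measured with 10x libraries in 8 samples, 2 for each genotype and culture. The authors deposited UMI counts for 16649 genes in 104660 cells, with a table giving each cell's library, total count, detected genes, mitochondrial percent, S and G2M score and cluster number. The deposited scores and the percent are the authors' own values, and the labels do not state how clusters and scores were made. Per the submitters' processing notes, the tools were Cell Ranger 5.0.1 and Seurat, with mm10 as the genome build. Cells with fewer than 500 detected genes were left out (2972 cells, 342 of them in cluster 1). The members and the gene lists were chosen with earlier results of these data known.

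Counts of cluster 1 were summed per library and tested with edgeR 4.0.16 (R 4.3.3, limma 3.58.1, TMM factors, filterByExpr, robust quasi-likelihood fit), with p-values adjusted by Benjamini-Hochberg over all genes tested and a threshold of 0.05. The model held genotype and culture, or the 4 groups for effects within a culture and for the interaction. Differences from all other cells were fitted on both sums of each library with the library as a block. CPM set beside all other cells are per library total, and CPM set between genotypes or cultures are TMM scaled, so the same gene differs slightly between the scales. The fit was tested on simulated data with known changes. Named genes are the 10 largest rises and 10 largest falls that passed at a mean of 10 CPM or more with no overlap between sides, the 20 highest and 10 lowest genes of the cluster by the same minimum, up to 4 members of a list by adjusted p, and a set of genes always given; any other gene was named after its values were seen. A few genes chosen this way are left out of the text. Positions are from GENCODE M21, which matched 16378 symbols (98.4%). Whether same-numbered libraries deviate together was checked by the correlation of their deviations from group means. It was 0.445 for KO and 0.187 for WT between Th22 and Th17, and -0.163 in Th22 and -0.113 in Th17 between KO and WT. The numbers were therefore used to pair cultures, and that pairing comes from the data and not from the labels. Genotype tests other than that on summed libraries treat the paired libraries as independent. Alternatives were RLE factors, DESeq2 1.42.0, no filter on low counts, thinning of each cell to 1500 UMIs (27219 cells of cluster 1 kept), leaving out the 8% of cells with most UMIs, a minimum of 1000 genes, the median UMIs per cell as covariate, the blocks, summed libraries and each library left out; leaving out both KO libraries of a number was chosen after seeing the data. No doublet caller was run, and the labels do not state whether the authors removed doublets. Tables were handled with Python 3.11.15, numpy 2.4.6, pandas 2.3.3 and scipy 1.17.1. At 9975821 to 21037210 UMIs per library sum, genes of a few CPM rest on few UMIs.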

Additional observations from a re-analysis of the deposited data

Results flagged for a closer look

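In 5 of 152 groups of 4 libraries, a single library stood apart from the others by Dixon's criterion, which chance meets in about 1 in 20 groups. KO Th22 replicate 2 did so among the Th22 libraries for Ccl4, at 114 CPM, for Ccl3, at 22.7 CPM, and for Gzmb, at 558 CPM. WT Th17 replicate 1 did so among the Th17 libraries for Dkkl1, at 9.04 CPM, and WT Th22 replicate 2 among the WT libraries for Ifng, at 0.845 CPM.

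The genotype effect in cluster 1 minus that in all other cells, tested with edgeR, was 0.67 for Nupr1, 0.49 for Timp1 and 0.47 for Upp1 on the log2 scale. It was -0.46 for Ifngr1, -0.40 for Serpinb1a, -0.40 for Gadd45g and -0.36 for Tnfrsf18. The polarization effect differed for Gzmb, by 0.66.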

How the results depend on the processing

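Counts of genes that passed moved with the processing, and the cause was not tested. KO against WT over both cultures called 846 genes, 491 in thinned cells, 196 with summed libraries, 1535 without both KO libraries numbered 1, and 345 to 1087 without single libraries. A replicate block over genotypes, whose numbers do not pair the samples, gave 788. In Th17 the 247 genes became 494 without the filter and 77 with the UMI covariate, and 24 to 470 without single libraries. In Th22 the 137 became 404 without the filter, 74 in thinned cells and 37 with the covariate, and 4 to 366 without single libraries. Th22 against Th17 called 350 genes, 935 with the replicate block, 223 in thinned cells and 134 to 359 without single libraries. The interaction called 0 genes, 26 with DESeq2, 54 without the filter and 0 to 5 without single libraries. The genotype difference from all other cells called 7 genes, 12 with DESeq2, 15 without the filter, 3 at the higher gene minimum and 3 to 41 without single libraries. The polarization difference called 1 gene, 2 in thinned cells, 2 at the higher gene minimum and 1 to 11 without single libraries. Trdc and Ccl5, lower in cluster 1 than in all other cells, had log2 ratios of 0.41 and 0.060 when the other cells were taken without clusters 3, 7, 8, 9, 10 and 11. Fits without a library of a single culture leave an arm with 1 sample, which is assumed to vary like the other groups. Genes of a few CPM, such as Ifng, Xcl1 and Cyp1b1, rest on few UMIs.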
